A study of Rattus norvegicus with 18 samples.

Results

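The genes described here are the core of fatty acid synthesis from carbohydrate: Srebf1 (ENSRNOG00000003463), Acly (ENSRNOG00000016924), Me1 (ENSRNOG00000009715), Acaca (ENSRNOG00000034013), Fasn (ENSRNOG00000045636), Scd (ENSRNOG00000013552) and Thrsp (ENSRNOG00000012404). They are 7 of the 32883 Ensembl gene IDs in the table, all 7 were found in it, and all 7 passed the filter on low values in every comparison. They were selected on their FPKM (fragments per kilobase of transcript, scaled to library depth) by diet in each sex, so their diet differences are given as a description with no test. The tissue was MRPVAT, the perivascular adipose tissue around the mesenteric resistance vessels, from Dahl S rats, a salt-sensitive strain that becomes hypertensive on a high-fat diet. The HFD (60% of kcal from fat, 20% from carbohydrate) or the CD, a control diet with 10% of kcal from fat and 70% from carbohydrate, was given from 3 weeks of age. Both diets held 20% of kcal as protein and 0.3% NaCl, and all animals had been on diet for 24 weeks. Values were available for 18 animals, 4 HFD males, 5 HFD females, 5 CD males and 4 CD females. The study describes 5 animals per group and 20 samples, so the HFD males and CD females here are incomplete groups. The methods describe an overnight fast before dissection in their part on flow cytometry, and their part on the RNA samples does not mention a fast. The females were not staged for the estrous cycle.

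Srebf1 encodes SREBP-1, a membrane-bound transcription factor that is released by proteolysis and drives fatty acid synthesis genes, above all after feeding and insulin. Acly cuts citrate into acetyl-CoA in the cytosol, Me1 supplies NADPH, Acaca makes malonyl-CoA, Fasn joins the 2-carbon units into palmitate, and Scd places the first double bond. Thrsp (Spot 14) is a small protein that follows lipogenic activity in liver and fat and is induced by thyroid hormone and carbohydrate. White adipose tissue expresses the whole pathway, and a diet low in carbohydrate and high in fat is known to lower it.

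The start-site windows of 3 members are shown because these genes lie at the extremes of the results: Scd varied most among the animals, Acly least, and Srebf1 encodes the transcription factor. Windows of 250 bases before to 50 bases after the start site came from RefSeq (build GRCr8, which the FPKM table may not share), and 5 of the 7 genes had one. Capitals mark a CCAAT box (CCAAT on either strand, so also ATTGG) or a GC box (GGGCGG on either strand, so also CCGCCC).
Scd, chr1:253231682-253231981, minus strand: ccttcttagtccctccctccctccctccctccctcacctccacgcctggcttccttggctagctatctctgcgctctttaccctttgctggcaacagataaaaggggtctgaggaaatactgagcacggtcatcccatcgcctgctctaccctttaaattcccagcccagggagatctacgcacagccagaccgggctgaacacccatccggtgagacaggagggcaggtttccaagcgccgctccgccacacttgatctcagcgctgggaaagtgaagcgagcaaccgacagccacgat
Acly, chr10:85963582-85963881, minus strand: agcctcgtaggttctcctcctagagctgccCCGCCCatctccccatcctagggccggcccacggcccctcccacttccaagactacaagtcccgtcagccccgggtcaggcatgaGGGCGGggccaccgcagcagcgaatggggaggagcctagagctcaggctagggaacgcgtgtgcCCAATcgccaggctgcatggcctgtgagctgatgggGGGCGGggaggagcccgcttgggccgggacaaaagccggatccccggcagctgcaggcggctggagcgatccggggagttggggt
Srebf1, downstream start site, chr10:45518961-45519260, minus strand: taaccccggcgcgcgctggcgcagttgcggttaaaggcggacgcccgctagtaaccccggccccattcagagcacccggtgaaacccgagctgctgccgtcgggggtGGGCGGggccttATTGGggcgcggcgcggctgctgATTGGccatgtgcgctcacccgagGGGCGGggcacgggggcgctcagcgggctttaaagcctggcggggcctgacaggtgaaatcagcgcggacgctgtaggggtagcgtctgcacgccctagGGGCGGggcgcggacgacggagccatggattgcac
The Scd window held neither motif. The Acly window held 1 CCAAT box and 3 GC boxes, and this Srebf1 window held 2 CCAAT boxes and 3 GC boxes. The Thrsp window, not shown, held 1 CCAAT box and 1 GC box, and the Me1 window held 5 GC boxes and no CCAAT box. Of the 6 windows of the members, 4 held a CCAAT box and 5 a GC box. Of all 33469 rat windows of this length, 37.5% held a CCAAT box and 33.1% a GC box. Srebf1 has a second, upstream window with 1 CCAAT box and 3 GC boxes, and the gene-level FPKM does not separate transcripts of the 2 start sites. None of the 6 windows of the members held the E-box CACGTG, which 6.42% of all windows held. None held the sterol regulatory element TCACNCCAC either, which 1.12% of all windows held. Both motifs were searched on either strand. A match of letters is a description and not a binding site.

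The libraries held 14547762 to 55148275 reads in genes, and the 7 genes together took 0.0411% to 0.888% of them, with at least 431 reads for each gene in each library. The study left out G73FHF3 and G75FHF5, both HFD females, as outliers. Of the 18 animals with values, 16 thus entered the comparisons here, and both left-out animals are described on their own further on. The study's own comparisons also held HFD males and CD females for which no values were available here. The study named both as statistical outliers on a principal component analysis. Its code kept G73FHF3 in a first fit and dropped it because that fit gave no calls between the diets in females. The set of kept females was thus itself chosen in part on a test result. Detection was lowest in G75FC5, G75FC4 (both CD females) and G76MC3 (a CD male), with 11865, 12798 and 13004 gene IDs at 0.5 FPKM or more, while the other libraries held 13242 to 14733. The males carried group number 74 or 76 in their codes and the females 73 or 75, so that the 2 sexes and the group numbers cannot be told apart. Diet and sex were taken from the sample titles, which match the codes in both. The group number did not match in 2 samples, since the title gave 75 for G73FHF3 and 73 for G75FC5, and group numbers are those of the codes unless stated. In 13 of the 18 samples another tag for sex or treatment went against the title. The cell type markers could not be checked, because the table's IDs were not paired with gene symbols. In bulk tissue, fewer cells of a type and less RNA per cell cannot be told apart.

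On the HFD, 6 of the 7 genes were higher in males than in the 3 kept females, by 2.34-fold (Acaca) to 54.7-fold (Scd). Only Acly did not pass the test. All tests between the sexes used the animals on whose diet values the genes were selected, so their adjusted p-values are not independent support. Of all 14302 gene IDs tested, 5.19% were called higher in HFD males (limma, adjusted p under 0.05 and a log2 fold change over 1). These were 742 IDs, with 954 called lower, and median-of-ratios scaling turned the split to 1020 higher and 367 lower while the same count of 6 members passed. On the CD, all 7 genes had a higher mean in males, but 1 of the 7, Acaca, passed the test, against 2.66% of 14195 gene IDs called higher in CD males (377 higher and 128 lower, or 301 and 36 with median-of-ratios scaling). With diet, Fasn and Acaca were the members with the largest difference in males, and Scd, Fasn and Thrsp in females. The call on the HFD rests on which females are used: with G73FHF3 added back, 0 of the 7 genes passed (adjusted p = 0.0834 to 0.0974 for the same 6 genes), and 28 of all gene IDs did.

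**Figure D1:**
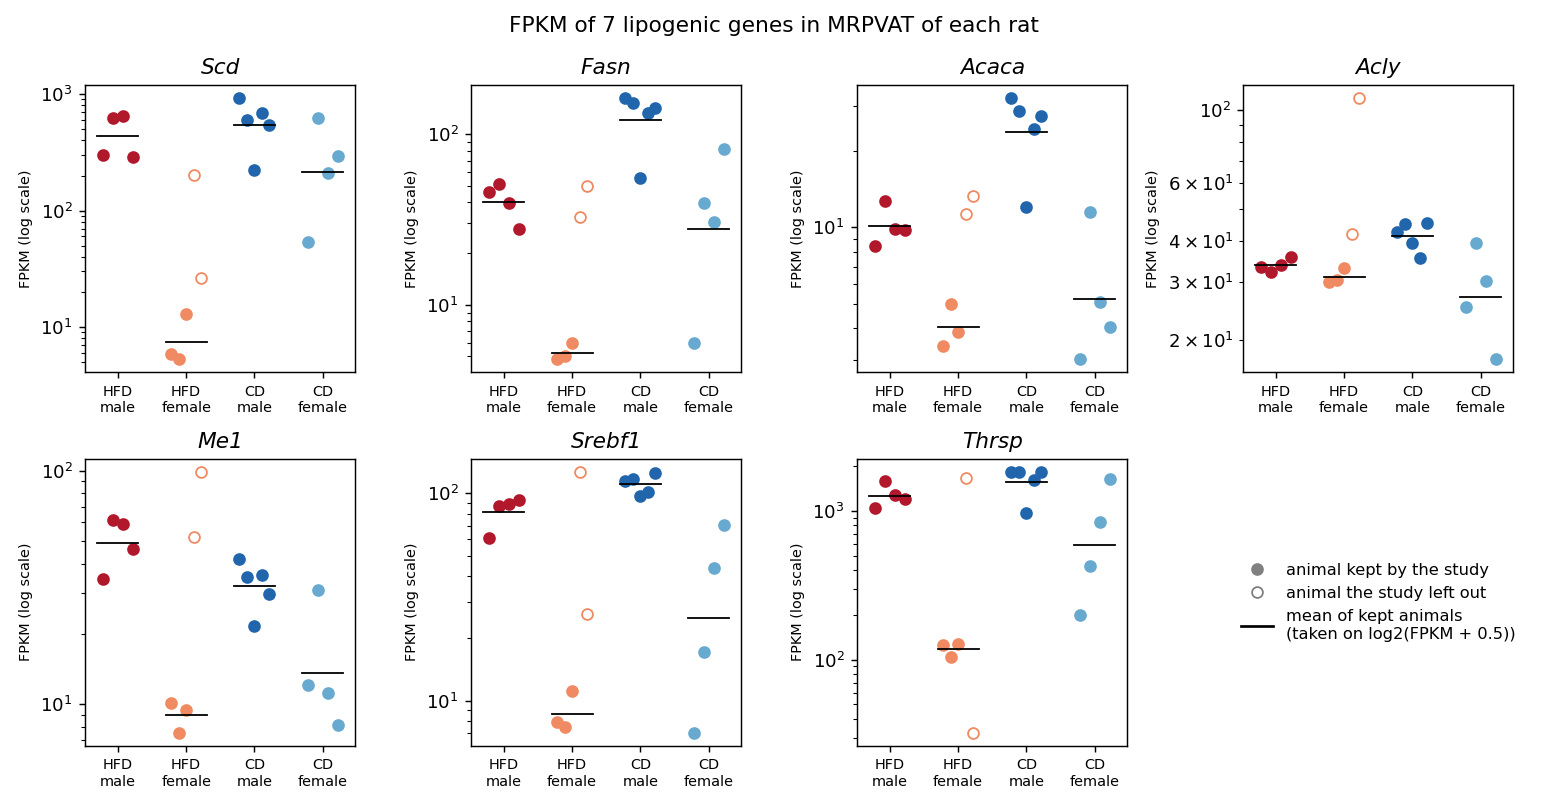
FPKM (log scale) of the 7 genes in each rat, by group. Filled points are kept animals, open points the 2 HFD females that the study left out, and lines are group means on the log2(FPKM + 0.5) scale. Except in the panel of Acly, the 3 kept HFD females lie below all HFD males. In all 7 panels the CD females have the widest spread of the kept groups. The share of all gene IDs with either trait was not worked out, so both are descriptions.

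Among the kept animals, Srebf1, the transcription factor, did not overlap between the sexes on either diet. How many of all gene IDs did not overlap between the sexes was not counted. The left-out HFD female G73FHF3 had 127 FPKM of Srebf1, above all HFD males. Srebf1 measured 61.2, 86.8, 88.8 and 93.3 FPKM in HFD males, against 7.44, 7.89 and 11.1 FPKM in the kept HFD females. It measured 97.6, 101, 115, 117 and 126 FPKM in CD males and 7.01, 17.2, 43.9 and 70.6 FPKM in CD females. The lowest male of each diet thus lay above the highest kept female of that diet. The log2 fold change of males over females was 3.16 ± 0.19 (SE) on the HFD (adjusted p = 3.07e-05) and 2.13 ± 0.54 on the CD (adjusted p = 0.0553, limma), so that only the first passed the threshold. Among the CD females, G75FC4 and G75FC5 were far above G73FC3 and G73FC4. In alternatives chosen after seeing the data, the difference on the CD was 3.27 (adjusted p = 0.000829) without the first pair and 0.99 (adjusted p = 0.0115), under the fold threshold, without the second, and it was 1.54 without G73FC3 alone.

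Acly, which provides the acetyl-CoA, was the steadiest of the 7 genes. It measured 32.2, 33.4, 33.8 and 35.8 FPKM in HFD males and 29.9, 30.4 and 33.1 FPKM in the kept HFD females. It measured 35.5, 39.3, 42.6, 44.9 and 45.4 FPKM in CD males, against 17.5, 25.2, 30.3 and 39.5 FPKM in CD females. The groups overlapped in both comparisons, and the CD females were the most spread. The log2 fold change of males over females was 0.12 ± 0.10 on the HFD (adjusted p = 0.349) and 0.61 ± 0.22 on the CD (adjusted p = 0.165, limma). With median-of-ratios scaling, the difference on the HFD was 0.37 with an adjusted p of 0.0317, still under the fold threshold.

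Me1, the cytosolic malic enzyme, had its higher mean in males on both diets. It measured 34.4, 46.2, 59.2 and 61.6 FPKM in HFD males, against 7.55, 9.47 and 10.1 FPKM in the kept HFD females. It measured 21.6, 29.5, 35.2, 35.7 and 41.8 FPKM in CD males, against 8.17, 11.1, 12.1 and 30.8 FPKM in CD females. On the HFD every male lay above every kept female, whereas on the CD a single female, G73FC4, lay within the range of the males. Males over females, the log2 fold change of Me1 was 2.39 ± 0.21 on the HFD (adjusted p = 0.00015) and 1.20 ± 0.35 on the CD (adjusted p = 0.0905, limma). The difference on the CD was 1.59 without G73FC4 and passed the test (adjusted p = 0.0104), whereas it was 0.97 without G75FC5 (adjusted p = 0.128) and 0.85 without the 3 low-detection libraries (adjusted p = 0.0735).

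Acaca, which commits acetyl-CoA to fatty acid synthesis as malonyl-CoA, was the only member called between the sexes on both diets. It measured 8.41, 9.79, 9.89 and 12.7 FPKM in HFD males, against 3.39, 3.87 and 4.97 FPKM in the kept HFD females. It measured 12.0, 24.5, 27.5, 28.9 and 32.4 FPKM in CD males, against 3.02, 4.04, 5.05 and 11.5 FPKM in CD females. Neither pair of groups of kept animals overlapped, although the lowest CD male, G76MC3, and the highest CD female, G73FC4, were close. The log2 fold change of males over females was 1.22 ± 0.18 on the HFD (adjusted p = 0.00224) and 2.09 ± 0.39 on the CD (adjusted p = 0.0184, limma). The call on the CD was lost when any 1 of the other CD males, G74MC4, G74MC5, G76MC4 or G76MC5, was left out (adjusted p = 0.0573 to 0.0632), with a log2 fold change of at least 1.98 in those 4 fits.

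Fasn, the fatty acid synthase, had its lowest group mean in the kept HFD females and its highest in CD males. It measured 27.7, 39.5, 46.1 and 51.5 FPKM in HFD males, against 4.81, 5.00 and 5.98 FPKM in the kept HFD females. It measured 55.7, 134, 143, 154 and 164 FPKM in CD males, against 5.95, 30.7, 39.5 and 81.7 FPKM in CD females. Among kept animals, the sexes did not overlap on the HFD. On the CD the female G75FC5 was above the male G76MC3, both of them low-detection libraries. The Fasn difference of males minus females on the log2 scale was 2.82 ± 0.21 on the HFD (adjusted p = 6.07e-05) and 2.10 ± 0.64 on the CD (adjusted p = 0.0993, limma). Without G75FC4, G75FC5 and G76MC3 the difference on the CD was 3.21 (adjusted p = 0.00702), and without G73FC3 it was 1.39 (adjusted p = 0.111).

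Scd, the stearoyl-CoA desaturase, had the largest sex difference on the HFD. It measured 287, 302, 623 and 647 FPKM in HFD males, against 5.32, 5.85 and 13.0 FPKM in the kept HFD females. It measured 222, 546, 594, 693 and 926 FPKM in CD males, against 54.2, 211, 295 and 626 FPKM in CD females. The lowest HFD male stood far above the highest kept HFD female, and on the CD only G73FC3 and G75FC4 were below all males. Between males and females, the log2 fold change of Scd was 5.77 ± 0.39 on the HFD (adjusted p = 4.38e-05) and 1.33 ± 0.64 on the CD (adjusted p = 0.299, limma). Thrsp, the Spot 14 protein, had the highest FPKM of the members in every kept animal except G73FC4, where Scd was higher. It measured 1039.5, 1207, 1282 and 1575 FPKM in HFD males, against 104, 126 and 127 FPKM in the kept HFD females. It measured 962, 1618, 1810.4, 1818 and 1828 FPKM in CD males, against 199.7, 427, 834 and 1646 FPKM in CD females. The HFD groups were again far apart, and the CD groups overlapped through the female G75FC5. For Thrsp the log2 fold change of males over females was 3.40 ± 0.15 on the HFD (adjusted p = 1.83e-05) and 1.42 ± 0.53 on the CD (adjusted p = 0.17, limma). On the CD it was 2.42 without G75FC4 and G75FC5 (adjusted p = 0.00306) and 0.42 without G73FC3 and G73FC4 (adjusted p = 0.324), and the difference of Scd was 0.67 without G73FC3.

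Over the members, the median log2 fold change of males over females was 2.82 on the HFD, against -0.26 over all 14302 gene IDs tested. Median-of-ratios scaling, which equalizes the typical gene between libraries, moved that overall median to -0.03 and the members' median to 3.07. On the CD the members' median was 1.42, against -0.02 over 14195 gene IDs. Leaving out any 1 animal kept the count of called genes at 6 on the HFD, but gave 0 to 4 on the CD. The CD count was 0 without G74MC4, G74MC5, G76MC4 or G76MC5, it was 2 without G73FC4, and it was 4 without G75FC5. Without the low-detection females G75FC4 and G75FC5, Srebf1, Fasn, Acaca and Thrsp were called on the CD, as were 4.92% of all IDs in that direction. Without G73FC3 and G73FC4, which like the other pair were left out after seeing the data, the called genes were Acaca and Me1, with 16.2% of all IDs. A fit of all 4 groups together, with one shared spread, called 5 of the 7 on the CD and 4.02% of all IDs higher in males. These tests used the same animals as the diet values on which the genes were selected, so the calls are not independent of that selection.

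**Figure D2:**
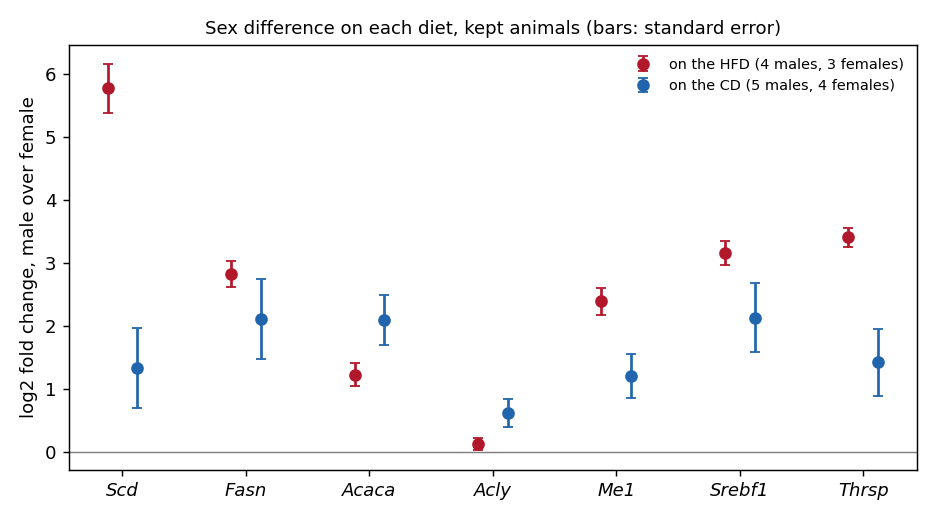
Log2 fold change of males over females for each gene (vertical axis), on the HFD (4 males, 3 females) and on the CD (5 males, 4 females), with standard errors as bars. Scd reaches 5.77 on the HFD and Acly lies at 0.12, while on the CD all 7 values lie between 0.61 and 2.13 with wider bars.

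In males, the diet difference was largest in Fasn and Acaca, the pair of enzymes that build the carbon chain. For Fasn, the log2 fold change of the HFD over the CD was -1.59 ± 0.31, which makes the HFD level 3.01-fold lower, and for Acaca it was -1.20 ± 0.26. Fasn and Srebf1 (-0.44 ± 0.14) were lower in every HFD male than in any CD male, and Acaca overlapped only through the CD male G76MC3. Of all 14265 gene IDs, 6.35% had non-overlapping groups with lower values on the HFD and 15.1% with higher values. Acly (-0.29 ± 0.10), Scd (-0.32 ± 0.40) and Thrsp (-0.31 ± 0.21) had smaller negative differences with overlapping groups. Me1 was the exception in direction, at 0.61 ± 0.22, with 3 of the 4 HFD males above all 5 CD males. The median of the 7 genes was -0.32, against 0.01 over all gene IDs tested. G76MC3 was the lowest CD male for 6 of the 7 genes, and without it the difference was -1.87 for Fasn and -1.44 for Acaca.

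In females, the diet difference was largest in Scd. The log2 fold change of the 3 kept HFD females over the 4 CD females was -4.76 ± 0.76 for Scd, which makes the HFD level 27.2-fold lower. Fasn (-2.31 ± 0.76) and Thrsp (-2.30 ± 0.64) followed, and Srebf1 stood at -1.47 ± 0.71. Every kept HFD female was below every CD female for Scd and Thrsp, whereas Fasn overlapped only through the CD female G73FC3. The left-out HFD female G73FHF3 did not share this. It was above every CD female for Srebf1, Me1, Acly and, narrowly, Thrsp (1647 against at most 1646 FPKM). For Scd, Fasn and Acaca it was within the range of the CD females. The members' median with G73FHF3 added back is given further on. Of all 14186 gene IDs, 2.07% had non-overlapping groups with lower values on the HFD and 5.82% with higher values. Me1 (-0.57 ± 0.44), Acaca (-0.33 ± 0.45) and Acly (0.20 ± 0.29) overlapped. Without the low-detection females G75FC4 and G75FC5, the difference was -0.33 for Srebf1, -1.29 for Thrsp and -1.48 for Fasn, while Scd was at -4.55. The sign of Acly turned to -0.11 under median-of-ratios scaling and to -0.02 without the low-detection females, and that of Acaca to 0.02 without G73FC4. The median of the 7 genes was -1.47, against 0.32 over all gene IDs tested. Median-of-ratios scaling moved the overall median to 0.06 and the members' median to -1.77.

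**Figure D3:**
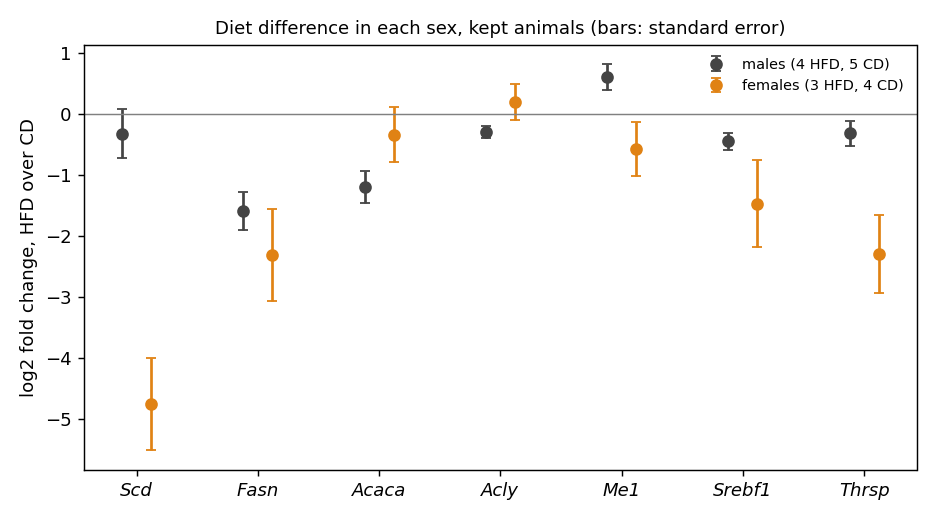
Log2 fold change of the HFD over the CD for each gene (vertical axis) in males (4 HFD, 5 CD) and females (3 HFD, 4 CD), with standard errors as bars. Scd lies at -0.32 in males and -4.76 in females, and Me1 lies above 0 in males, at 0.61, and below 0 in females, at -0.57.

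The diet difference of males minus that of females was 4.44 ± 0.87 (SE) on the log2 scale for Scd, the largest of the 7 values. It was 1.99 ± 0.65 for Thrsp, 1.18 ± 0.47 for Me1, 1.03 ± 0.68 for Srebf1 and 0.72 ± 0.80 for Fasn, and it was below 0 for Acaca (-0.87 ± 0.50) and Acly (-0.49 ± 0.28). These values used the kept animals only, without G73FHF3 and G75FHF5. They contain the differences on which the genes were selected and are given with no test. Each group number held both diets of 1 sex. Within group 74 the median difference over the 7 genes was -0.67 and within group 76 it was -0.19, with 6 of 7 genes lower on the HFD in each and Me1 higher in each. Within group 73 the median was -1.10 with 7 of 7 genes lower on the HFD, and within group 75, with its single kept HFD female, it was -2.27 with 6 of 7 lower. Scd was -4.93 in group 73 and -4.21 in group 75. Fasn was -1.69 in group 74 and -1.61 in group 76. Srebf1 was -0.50 in group 73 and -2.27 in group 75. With the group number of the title, a choice made after seeing the data that moves G75FC5 to group 73 and leaves 1 rat of each diet in group 75, Srebf1 was -1.37 in group 73 and -1.93 in group 75, and the medians over the 7 genes were -1.37 and -1.93 as well, with 6 of 7 genes lower on the HFD in each. Scd was then -5.16 in group 73 and -3.97 in group 75.

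The CD females had the largest ratio of highest to lowest FPKM of the kept groups for all 7 genes. How many of all gene IDs share this was not counted, so it is not shown to be particular to the members. G73FC3 was the lowest CD female for 5 of the 7 genes, and its Srebf1 and Fasn lay within or just beside the range of the kept HFD females. G73FC4 was the highest for Scd, Acaca, Acly and Me1, with 626 FPKM of Scd and 30.8 FPKM of Me1. Its Srebf1 was only 17.2 FPKM. G75FC5 had the opposite profile, the highest for Fasn, Srebf1 and Thrsp and the lowest for Acly and Me1. The ratio of Fasn to Acaca within a library was 4.62 to 5.45 in CD males, against 1.97 to 20.2 in CD females, and the 20.2 belonged to G75FC5. Detection was lowest in G75FC5 of all libraries, and its part in this profile was not tested.

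**Figure D4:**
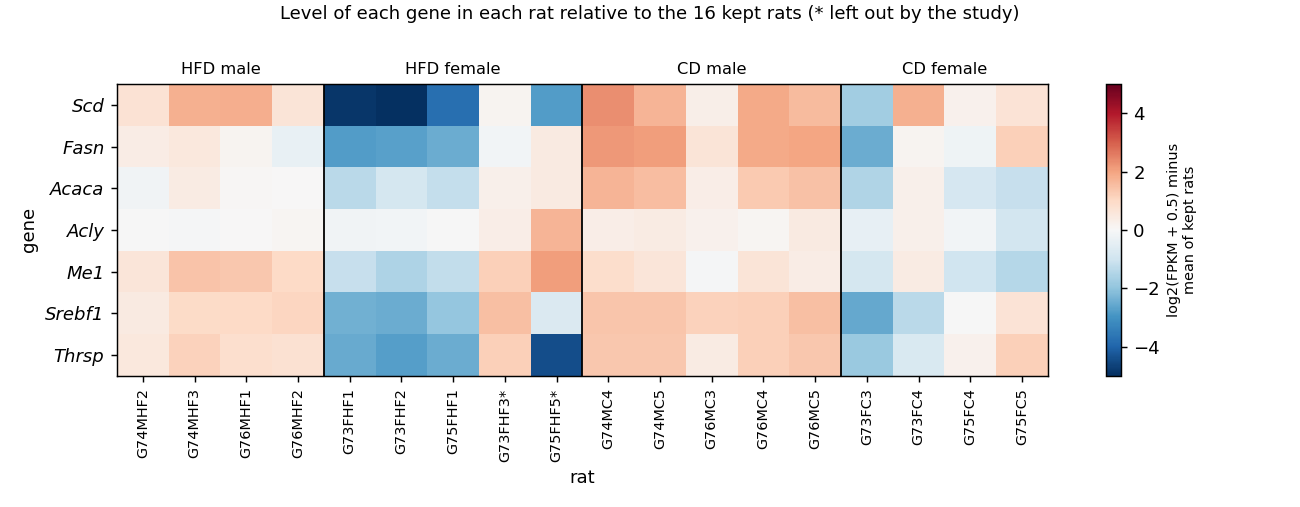
Level of each gene (rows) in each rat (columns, by group) as log2(FPKM + 0.5) minus the mean of the 16 kept rats. Blue marks lower and red higher values, and asterisks mark the 2 rats the study left out. The kept HFD females are below 0 for all 7 genes, only slightly so for Acly, G73FHF3 is near or above the mean for every gene, and G75FHF5 is low for Thrsp and Scd and high for Acly and Me1.

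The 2 HFD females that the study left out differed from the kept HFD females and from each other. G73FHF3 had 127 FPKM of Srebf1, the highest of all 18 animals, 1647 FPKM of Thrsp, 202 FPKM of Scd and 32.7 FPKM of Fasn. It was above all 3 kept HFD females for 7 of 7 genes, and within the range of the HFD males for Fasn, Acaca and Me1. Compared with those males, it was above their range for Acly, Srebf1 and Thrsp and below it for Scd. G75FHF5 had 109 FPKM of Acly and 99.0 FPKM of Me1, the highest of all 18 animals, but 32.3 FPKM of Thrsp, the lowest. Thrsp and Srebf1, which kept a ratio of 9.85 to 28.5 in all 16 kept animals and 12.9 in G73FHF3, had a ratio of 1.23 in G75FHF5. With both animals included, the log2 fold change of males over females on the HFD was 4.49 for Scd, 3.02 for Thrsp and 2.09 for Srebf1, and 0 of the 7 genes passed the test. The diet difference in females was then -3.48 for Scd, and it turned to 0.60 for Me1 and 0.27 for Acaca.

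Over the 16 kept animals the highest FPKM of Scd was 174 times the lowest. The same ratio was 34.0 for Fasn, 17.5 for Thrsp, 10.7 for Acaca, 8.16 for Me1 and 2.59 for Acly, and that of Srebf1 lay between those of Fasn and Thrsp. The standard deviation over these animals was 2.47 for Scd and 0.33 for Acly on the log2 scale, with a median of 0.53 over 15128 gene IDs. Scd, Fasn, Srebf1 and Thrsp each had a Pearson r of 0.91 to 0.94 with the mean of the other 6 genes over 16 animals. This r was 0.83 for Acaca, 0.76 for Me1 and 0.46 for Acly. For the members it was not worked out with group means removed, so differences between the groups enter it. Ratios of 2 members within a library, built from the values on which the genes were selected, are given as a description. Me1 per Fasn was 0.747 to 1.67 in HFD males, against 0.206 to 0.387 in CD males, with no overlap. Scd per Acly was 0.175 to 0.392 in the kept HFD females, against 2.15 to 16.9 in CD females. Outside the 7 genes, the ID whose log2 level was most like their mean was ENSRNOG00000005806 (r = 0.983, and 0.950 after removing group means), and the one most like Srebf1 was ENSRNOG00000013097 (r = 0.994, and 0.973 after removing group means). The points of these correlations share diet, sex and library, and they are descriptions.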

How the data were processed

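FPKM of MRPVAT RNA were available for 18 of the rats that the study sequenced. Per the study's methods, the read alignment was done in STAR (2.5) and gene counting in HTSeq (0.6.1), and the authors tested their counts in DESeq2 (1.24.0). The values deposited by the authors are FPKM for each Ensembl gene ID and animal. For the FPKM formula, the genome build and the annotation, the entry is: not given in the sources used here. Steps between FPKM values gave whole reads for 19388 of 19388 gene IDs above 0 in 4 or more libraries (tolerance 1e-06 reads). Limma (3.58.1, R 4.3.3), with a variance trend, was fitted to log2(FPKM + 0.5) of gene IDs that reached 0.5 FPKM in 3 or more animals of a comparison. Tests were two-sided, with Benjamini-Hochberg adjustment over all these IDs. Fold changes are on this scale, which understates changes of low genes. A call needed both an adjusted p below 0.05 and a log2 fold change beyond 1 in size. Each comparison was fitted on its own 2 groups without G73FHF3 and G75FHF5. No source says whether animals of a group shared a litter or cage.

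The members and lists were chosen with earlier results of these data known. The text names all 7 members and, for likeness, 1 ID for each of 2 targets. Lists of other lipid genes and of cell type markers were not used, because IDs and symbols could not be paired. The symbols of the 7 members came with the choice of IDs. Motifs were searched in RefSeq windows (GRCr8). Scripts were tested on simulated data with 200 changed IDs. Alternatives were other pseudocounts (0.1, 1), filters (none, 1 FPKM), scalings, sample weights, a joint fit, limma-voom on recovered reads, blocks, and animals left out or added back.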

Additional observations from a re-analysis of the deposited data

Results flagged for a closer look

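Of 28 sets of 4 or 5 animals (1 gene in 1 group), 6 held an animal beyond the limit of Dixon's test, run on FPKM. The sex and diet differences are on the log2 scale, where these flags can differ and were not worked out. The sets included the 2 left-out HFD females. They share animals, and most members vary together. The count can therefore not be set against the test's rate of about 1 set of 20, which holds for separate sets. G73FHF3 stood above the other 4 HFD females for Scd (202 FPKM), Srebf1 (127 FPKM) and Thrsp (1647 FPKM). G75FHF5 stood above the other 4 HFD females for Acly (109 FPKM). G76MC3 stood below the other 4 CD males for Fasn (55.7 FPKM) and Thrsp (962 FPKM). G73FHF3 and G75FHF5 are the animals that the study left out as outliers in these same data, so their flags are not independent of that choice. G76MC3 is the CD male library with the fewest gene IDs at 0.5 FPKM or more.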

How the results depend on the processing

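The 6 genes called between the sexes on the HFD stayed called under 16 of 18 alternatives, the 7 in which 1 animal was left out included. With G73FHF3 the members' median log2 fold change was 2.19 and 0 of the 7 genes were called, and with G73FHF3 and G75FHF5 it was 1.69 and again 0 were called (2.71 to 3.00 without any 1 animal). The difference of Acly took the opposite sign, -0.32, when both animals were included. On the CD, every member kept its sign under all 21 alternatives, but the count of 1 called gene became 2 with quantile normalization (2.87% of all IDs called higher in males), 4 with sample quality weights (5.07%), 5 in the fit of all 4 groups (4.02%), 4 without G75FC4, G75FC5 and G76MC3 (5.68%), and 0 to 4 without any 1 animal. Alternatives chosen after seeing the data gave 2 without G73FC3 and G73FC4 (16.2%) and 4 without G75FC4 and G75FC5 (4.92%). The members' median there was 2.13 with sample quality weights, 2.14 without the 3 low-detection libraries and 1.15 to 1.92 without any 1 animal. Over all gene IDs, calls in either direction numbered 1696 on the HFD (8 to 2641 over the alternatives) and 505 on the CD (177 to 2863). The cause of these changes was not tested.

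In males, all 7 diet differences kept their sign under the 20 alternatives, with a median of -0.49 to -0.28 without any 1 animal. In females the median was -0.89 with sample quality weights, -0.52 with G73FHF3, -0.40 with G73FHF3 and G75FHF5, -2.61 without G73FC3 and G73FC4 (chosen after seeing the data), and -2.06 to -0.98 without any 1 animal. Scd, Fasn, Srebf1 and Thrsp kept their sign under all 22 alternatives, although Srebf1 ranged from -2.61 to -0.33. With the group number as a block, the median was -0.36 in males and -1.21 in females (-1.54 with the group number of the title), and no sex difference could be blocked because each number held 1 sex. The numbers are not stated to mark a shared litter or batch.

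With 3 to 5 animals a group, a difference that missed the threshold is not shown to be absent. Each member had 431 reads or more in each library, and the part of depth in these differences was not tested.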
